A study of Homo sapiens with 30 samples.

Results

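The comparison was between 2 lists of open chromatin regions from neural cells of anterior origin, made on day 4 after culture in a midbrain medium (aNE_M) or a hindbrain medium (aNE_H). Peaks of all 10 lists of the study on chromosomes 1 to 22 were merged where they overlapped by at least 1 bp, which gave 476170 regions, and a list was called open at a region where it had a peak. Of these regions, 229986 were open in aNE_M, in aNE_H or in both. The 2 lists shared 153994 regions. A further 44816 were open in aNE_M and not in aNE_H, 19.5% of those open in either list. Another 31176 were open in aNE_H and not in aNE_M, 13.6% of those open in either. The names aNE_M-only and aNE_H-only are used below for these 2 sets, and either set may be open in any of the other 8 lists.

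All cells were wild-type H1, a human embryonic stem cell line. The study used OmniATAC-seq, in which the Tn5 transposase cuts accessible DNA and adds sequencing adapters to it, with 3 replicates in each of 10 groups and 50000 cells per library. Undifferentiated cells (hPSC, day 0) became definitive ectoderm (DE, day 1) in CDM2 base medium with A8301, Trametinib, C59 and LDN193189 for 24 hours. The anterior neural ectoderm (aNE, day 2) was then made with A8301, LDN193189, C59 and Thiazovivin, and the posterior neural ectoderm (pNE, day 2) with A8301, LDN193189, TTNPB, FGF2, XAV939 and Thiazovivin. For the day 4 samples of anterior origin, cells were plated at 75000 per square cm, and all of them went through the DE and aNE media before the telencephalon (aNE_T), midbrain or hindbrain medium. The posterior day 4 lists (pNE_T, pNE_M and pNE_H) came from cells plated at 150000 per square cm. On day 2 the aNE and pNE cells were plated at 37500 per square cm. Day and plating density therefore differ together between aNE and the day 4 lists. What the midbrain and hindbrain media contain is not given in the sources used here. The cells are 1 line, and no protein or RNA was measured in the files used, so the population names are those of the labels.

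The midbrain and hindbrain are neighbouring parts of the embryonic neural tube. Their border is known to form where OTX2, a homeodomain factor of the forebrain and midbrain, meets GBX2, a homeodomain factor of the anterior hindbrain, and the isthmus at that border secretes FGF8 and WNT1. WNT signals and retinoic acid shift neural cells to more posterior fates, and retinoic acid switches on HOX genes in the hindbrain.

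These 5 promoters show the kinds of difference found between the lists, and their sequences are given here because the lists disagreed at the start of the gene itself. Each is the run of 250 bases before the RefSeq start site on GRCh38.p14, printed 5′ to 3′. Capitals mark bases inside a peak of the list that was open there, aNE_M for WNT8B, HES5 and PAX6, and aNE_H for CYP26C1 and KRT9. They lie at chr10:100462759-100463008 on the plus strand for WNT8B, chr1:2530264-2530513 on the minus strand for HES5, and chr11:31817962-31818211 on the minus strand for PAX6. The CYP26C1 sequence is chr10:93060548-93060797 on the plus strand, and that of KRT9 is chr17:41572060-41572309 on the minus strand. WNT8B and KRT9 were chosen after their values were seen. By width they ranked 5 and 4 among the exclusive peaks over start sites in their sets, and sequences at the wider ones are not printed.
WNT8B: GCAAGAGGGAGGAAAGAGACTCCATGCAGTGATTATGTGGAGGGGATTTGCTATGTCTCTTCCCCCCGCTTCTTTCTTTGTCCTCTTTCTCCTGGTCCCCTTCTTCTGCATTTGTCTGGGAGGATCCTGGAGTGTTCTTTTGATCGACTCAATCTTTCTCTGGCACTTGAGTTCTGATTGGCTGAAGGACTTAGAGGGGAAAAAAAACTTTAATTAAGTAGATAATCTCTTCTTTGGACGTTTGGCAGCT
HES5: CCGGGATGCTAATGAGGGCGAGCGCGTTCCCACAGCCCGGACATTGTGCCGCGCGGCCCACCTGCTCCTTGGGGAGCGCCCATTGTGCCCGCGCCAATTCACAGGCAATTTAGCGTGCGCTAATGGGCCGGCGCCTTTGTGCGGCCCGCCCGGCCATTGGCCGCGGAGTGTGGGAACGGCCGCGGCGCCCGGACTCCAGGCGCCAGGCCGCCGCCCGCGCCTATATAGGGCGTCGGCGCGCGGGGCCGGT
PAX6: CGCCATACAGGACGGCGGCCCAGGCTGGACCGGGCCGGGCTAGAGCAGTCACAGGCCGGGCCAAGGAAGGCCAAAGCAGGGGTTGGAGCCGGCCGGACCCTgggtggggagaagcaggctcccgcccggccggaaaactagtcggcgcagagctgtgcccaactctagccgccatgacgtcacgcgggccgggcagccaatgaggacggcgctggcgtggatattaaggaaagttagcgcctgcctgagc
CYP26C1: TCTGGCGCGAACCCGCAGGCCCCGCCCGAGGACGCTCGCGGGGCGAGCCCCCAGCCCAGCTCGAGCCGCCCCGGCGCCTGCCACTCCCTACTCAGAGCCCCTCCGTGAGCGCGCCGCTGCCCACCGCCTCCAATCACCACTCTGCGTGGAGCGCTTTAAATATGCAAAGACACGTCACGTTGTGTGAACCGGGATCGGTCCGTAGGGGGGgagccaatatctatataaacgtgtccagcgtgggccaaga
KRT9: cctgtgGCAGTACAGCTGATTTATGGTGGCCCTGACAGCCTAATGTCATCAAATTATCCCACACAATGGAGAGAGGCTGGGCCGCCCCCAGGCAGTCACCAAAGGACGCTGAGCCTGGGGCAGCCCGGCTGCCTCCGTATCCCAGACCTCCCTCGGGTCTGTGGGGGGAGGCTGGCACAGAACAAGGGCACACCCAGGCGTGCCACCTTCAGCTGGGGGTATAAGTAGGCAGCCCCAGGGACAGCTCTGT

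WNT8B encodes a WNT ligand of the developing forebrain. Of the 300 bases from 250 before to 50 after its start site, peaks covered 293 in aNE_M, 300 in aNE_T, 246 in aNE and 275 in DE. The hPSC, pNE, aNE_H, pNE_T, pNE_M and pNE_H lists had no peak in the window, so it was open in aNE and in the telencephalon and midbrain lists made from it, and in none of the posterior lists. The nearest aNE_H peak was 5414 bp away, and the aNE_M peak was 523 bp wide. The homeodomain core TAATTA began 40 bases before the start site, and ACAAAG, a SOX site, began 175 before it on the reverse strand, both in capitals above.

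HES5 is a Notch target that keeps neural progenitors undifferentiated. Peaks covered the whole 300-base window in aNE_M, aNE_T, pNE_T and pNE_M, and 160 bases in hPSC, 266 in DE, 255 in aNE, 228 in pNE and 147 in pNE_H. Only aNE_H had none of the window in a peak, and its nearest peak lay 600 bp away. PAX6 encodes a paired homeodomain factor of the forebrain, eye and spinal cord. At PAX6 the peaks covered 300 bases in hPSC, 206 in DE, 300 in aNE, 222 in pNE, 250 in aNE_T, 101 in aNE_M, 212 in pNE_T and 163 in pNE_H. There was no peak in aNE_H or pNE_M, and the nearest aNE_H peak was 1429 bp away. The aNE_M peak at PAX6 was 193 bp wide, the narrowest of the 8 there except that of pNE_H at 168 bp. That aNE_M peak ran from -342 to -150 bp relative to the start site. Both lists also had a wider peak upstream, at -2849 to -1674 bp in aNE_M and -2845 to -1680 bp in aNE_H.

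CYP26C1 is an enzyme that degrades retinoic acid. Peaks covered 210 bases of its window in aNE_H, 125 in pNE_M, 91 in pNE_T, 57 in DE, 57 in aNE, 56 in aNE_T, 55 in pNE_H, 31 in pNE and 7 in hPSC. The aNE_M list had none, but an aNE_M peak of 458 bp began 60 bp beyond the window, so the 2 media differed there in where the peak lay. KRT9, a keratin gene of palm and sole skin, was covered over 294 bases in aNE_H, 178 in pNE_T, 300 in pNE_M and 300 in pNE_H. None of the other 6 lists had a peak in the KRT9 window, and the nearest aNE_M peak was 6745 bp away. The HOX-PBX motif TGATNNAT began 234 bases before the KRT9 start site, inside the aNE_H peak.

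**Figure D1:**
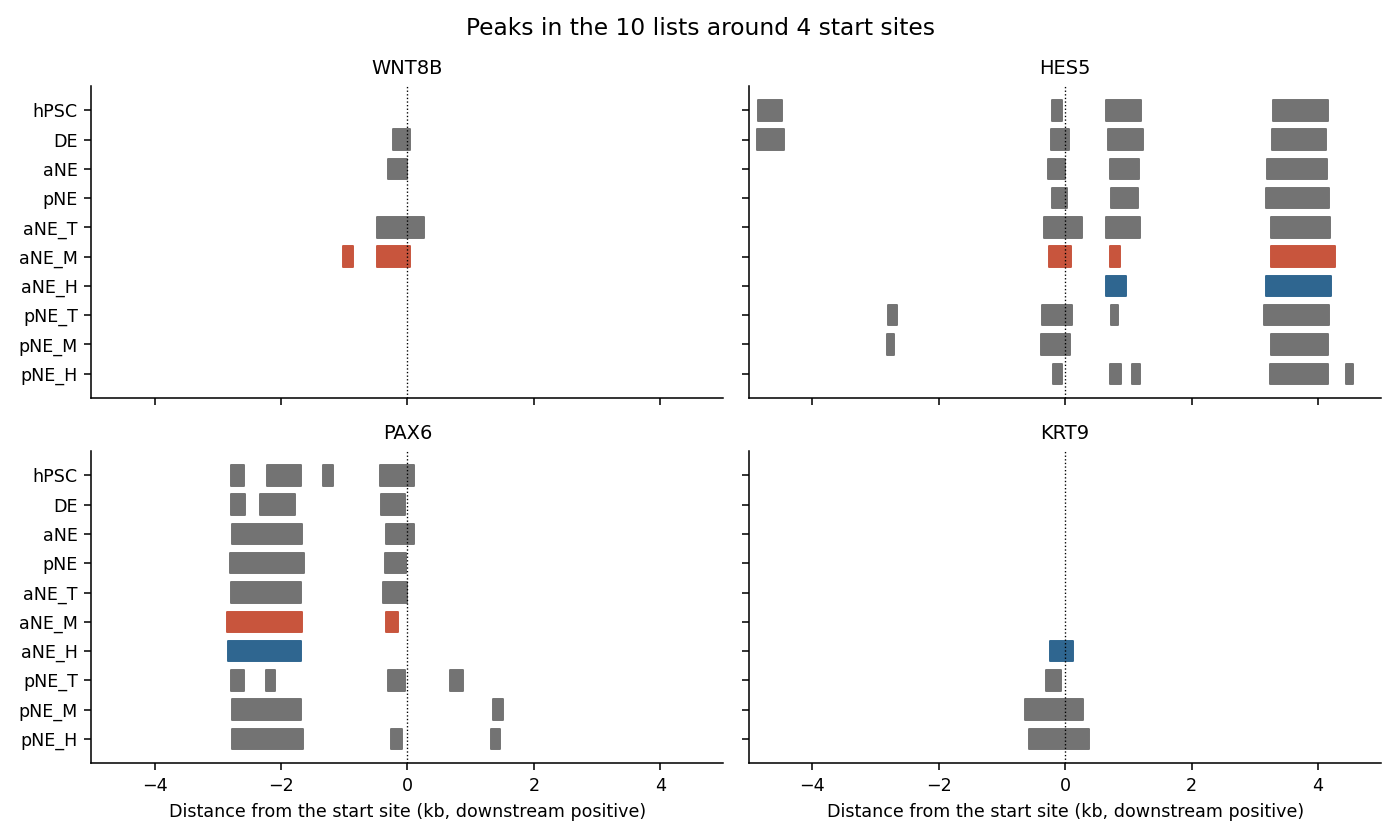
Peaks of the 10 lists within 5 kb of 4 start sites. The horizontal axis is the distance from the start site in kb, with downstream positive and the dotted line at the start site, each line of bars is 1 list, and each bar is a peak (aNE_M and aNE_H coloured, the other lists grey). At WNT8B the bars at or just before the start site are those of DE, aNE, aNE_T and aNE_M, and at KRT9 they are those of aNE_H, pNE_T, pNE_M and pNE_H.

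Such promoters were few. A window of 300 bases was found in RefSeq for 15100 of 19122 protein-coding genes (79.0%). It was open in both lists for 11216 genes (74.3%) and in neither for 3499 (23.2%). The window was open in aNE_M only for 236 genes, 1.56% of those with a window, and in aNE_H only for 149, or 0.987%. When aNE_M was cut to as many peaks as aNE_H, these numbers became 213 and 163. Among the fixed gene lists below, 112 genes had a window, and 85 of these were open in both lists. HES5 and PAX6 were the 2 open in aNE_M only, CYP26C1 was the 1 open in aNE_H only, and 24 were open in neither, among them OTX2, PAX2, SHH and TBXT at their RefSeq start.

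Promoters open in 1 list only were poorer in CpG than shared ones. The median number of CpG in the window was 6 for the aNE_M-only and 6 for the aNE_H-only promoters, against 27 for those open in both and 22 over all 15100. Both strands were searched for 7 short motifs, and GGGCGG, the GC box, can overlap the others. The GC box was present in 34.3% of aNE_M-only, 31.5% of aNE_H-only and 72.3% of shared promoters, with 58.9% over all. TAATCC, bound by OTX factors, was in 11.0% of aNE_M-only, 6.04% of aNE_H-only, 4.07% of shared and 5.38% of all promoters. Promoters open in neither list, which were also poor in CpG with a median of 4, held it in 9.17%. For TGATNNAT the shares were 5.08% of aNE_M-only, 7.38% of aNE_H-only, 4.99% of all and 11.7% of the promoters open in neither list.

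TAATTA was in 4.24% of aNE_M-only, 4.03% of aNE_H-only, 3.40% of all and 8.40% of the promoters open in neither list. CTTTGAT, bound by TCF and LEF, the nuclear effectors of WNT, was in 1.27%, 2.68%, 1.90% and 3.92% of the same groups. AGGTCA, read by nuclear receptors such as those of retinoic acid, was in 16.9%, 19.5%, 11.7% and 19.0%. ACAAAG was in 22.0%, 16.8%, 12.7% and 19.8%. A match is a string of letters only, and these shares rest on 236 and 149 promoters.

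The 2 media gave lists that were alike. The Jaccard index, the number of shared regions over the number open in either list, was 0.670. Across the 45 pairs of lists the 2 highest values were 0.6701 for pNE with aNE_M and 0.6696 for aNE_M with aNE_H, a difference in the fourth decimal. They were followed by 0.6477 for pNE with aNE_H, 0.6328 for aNE_T with aNE_M and 0.6310 for aNE with aNE_T. The aNE_H list came to 0.5495 with aNE_T, 0.5137 with aNE and 0.4826 with pNE_H. The index with aNE_T was thus 0.6328 for aNE_M against 0.5495 for aNE_H. Exclusive regions were 22.5% of the 198810 regions open in aNE_M and 16.8% of the 185170 open in aNE_H.

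Each group had 1 list, made from 3 replicates in a way that is not given in the sources used here, and the lists carry no score. No value has a replicate error, no difference was tested, and read depth is unknown. The intervals printed are Wilson intervals at 95%, which cover the sampling of regions within these lists only. A region without a peak is below the limit of the authors' peak calling, which need not mean closed chromatin. On chromosomes 1 to 22 the aNE_M list had 211358 peaks over 88.2 Mb and aNE_H had 196961 over 81.1 Mb, with median widths of 285 and 283 bp. The other 8 lists had between 162041 peaks (aNE) and 302355 (pNE_H). Cutting aNE_M to its 196961 widest peaks removed 14397 and left none narrower than 131 bp. This gave 36564 aNE_M-only, 35773 aNE_H-only and 149398 shared regions, a Jaccard index of 0.674, and 19.7% and 19.3% of each list as exclusive. With every list cut to its 162041 widest peaks the numbers were 30791, 30091 and 123659, with an index of 0.670.

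Exclusive regions were held by narrow peaks. The widest peak of an aNE_M-only region was 175 bp at the median, with quartiles at 139 and 235 bp, and only 1.95% passed 500 bp. For aNE_H-only regions the median was 171 bp, the quartiles were 140 and 221 bp, and 0.706% passed 500 bp. In shared regions the median was 360 bp in aNE_M and 339 bp in aNE_H, and 34.1% and 31.4% passed 500 bp. Each list was split by width into 10 equal groups. Of the narrowest group of aNE_M peaks, from 122 to 140 bp, 61.6% overlapped no aNE_H peak, and of the widest, from 894 bp, 29 of 21135 did not. For aNE_H peaks the share fell from 49.8% in the narrowest group (126 to 144 bp) to 5 of 19696 in the widest, from 877 bp. By this count the lists differed mostly in narrow peaks and hardly at all in wide ones. Any overlap of 1 bp counts as a match, which a wide peak meets more easily. How much of the fall this rule gives was not tested.

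**Figure D2:**
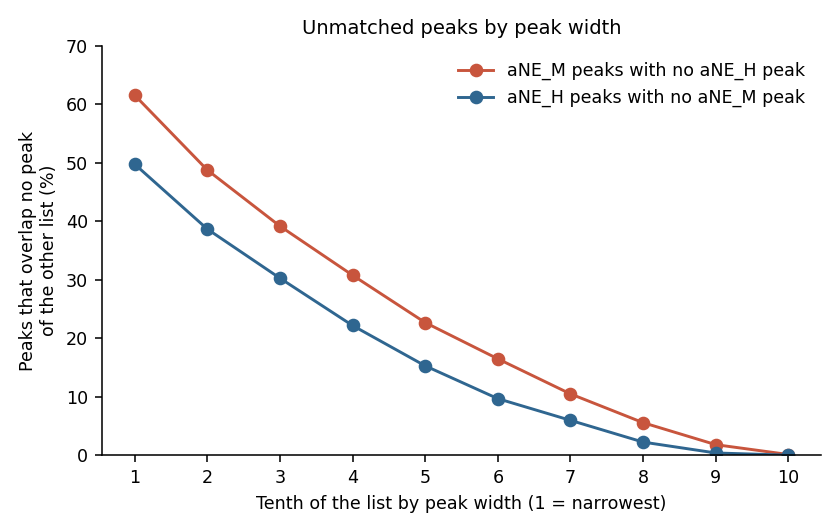
Share of peaks that overlap no peak of the other list, by peak width. The horizontal axis runs from the narrowest (1) to the widest (10) of 10 equal groups of each list, the vertical axis is in percent, and each point is 1 group of the aNE_M or aNE_H list. The share falls in every step, from 61.6% to 0.137% in aNE_M and from 49.8% to 0.0254% in aNE_H.

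Shared regions were also of similar extent in both media. Peaks of the 2 lists covered 374 bp in aNE_M and 351 bp in aNE_H at the median, with a median ratio of 1.03. The aNE_M peaks covered more than 2 times as much as the aNE_H peaks in 7359 shared regions (4.78%), and the reverse held in 4545 (2.95%). In 852 regions (0.553%) the peaks of the 2 lists did not touch and were joined by a peak of another list. Many exclusive regions had a peak of the other list close by. Of the aNE_M-only regions, 9916 (22.1%) lay within 1 kb of an aNE_H peak, and of the aNE_H-only regions 7678 (24.6%) lay within 1 kb of an aNE_M peak.

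Most exclusive regions lay away from promoters. Within 1 kb of an end of an annotated gene lay 8.53% of aNE_M-only and 7.77% of aNE_H-only regions, against 18.1% of shared ones. Inside a protein-coding gene lay 51.5%, 48.1% and 53.7% of the same sets. The median distance to the nearest end of a protein-coding gene was 45.9 kb for aNE_M-only, 49.4 kb for aNE_H-only and 33.7 kb for shared regions. More than 100 kb away were 31.1%, 33.7% and 26.7%.

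The 2 exclusive sets differed in where else they were open. Of aNE_M-only regions 50.4% (50.0 to 50.9) were open in aNE_T, against 16.8% (16.4 to 17.3) of aNE_H-only regions, a ratio of 2.99. In aNE, the day 2 parent of both, 31.6% (31.2 to 32.0) and 14.0% (13.6 to 14.4) were open, a ratio of 2.26. The pNE_T list, made from the posterior parent with the telencephalon medium, was open at 38.6% (38.1 to 39.0) and 19.2% (18.8 to 19.6), a ratio of 2.01. For DE the shares were 44.4% and 27.3%, for pNE 38.0% and 27.4%, and for hPSC 32.7% and 23.9%. With every list cut to 162041 peaks the aNE_M-only share stayed higher, as aNE_T had 56.5% and 22.0%, pNE_T 38.8% and 19.8%, and aNE 44.2% and 25.0%. The ratio was then 1.96 at pNE_T and 1.77 at aNE, so by ratio these 2 lists changed places. In percentage points their order was the reverse. The difference was 19.4 points at pNE_T and 17.6 at aNE as deposited, and 19.0 and 19.2 at equal size. The aNE_M-only share was thus the higher one in all of these lists, with the widest gaps in points at aNE_T, pNE_T and aNE as deposited. Shared regions were open in aNE_T in 81.0% and in aNE in 71.5% of cases.

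The lists made with the same media from the posterior parent split the sets less. The pNE_M list was open at 30.5% (30.1 to 31.0) of aNE_M-only and 28.0% (27.5 to 28.5) of aNE_H-only regions, a ratio of 1.09. The pNE_H list was open at 54.8% (54.3 to 55.3) and 48.2% (47.6 to 48.7), a ratio of 1.14. It held 302355 peaks, and with all lists at equal size its shares were 33.0% and 28.3%. Among the regions open in exactly 1 of pNE_M and pNE_H, pNE_M was the open list for 16.1% of 16018 aNE_M-only, 19.0% of 10174 aNE_H-only and 15.2% of 24167 shared regions. At equal size these shares were 43.4%, 49.0% and 51.8%. In neither setting was pNE_M more often the open list at aNE_M-only than at aNE_H-only regions.

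**Figure D3:**
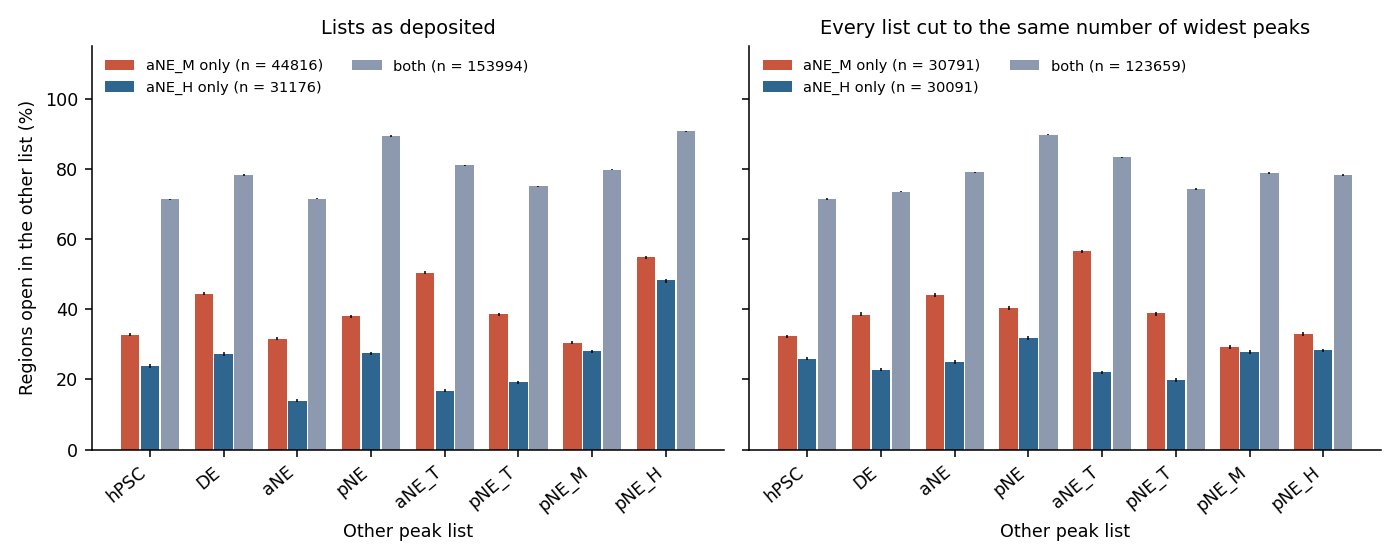
Share of aNE_M-only, aNE_H-only and shared regions open in each of the other 8 lists. The vertical axis is percent of regions, the horizontal axis is the other list, bars are the 3 region sets, error bars are Wilson intervals at 95% over regions, and the right panel has every list cut to the same number of widest peaks. The gap between the aNE_M-only and aNE_H-only bars is widest at aNE_T (50.4% against 16.8% as deposited) and narrowest at pNE_M (30.5% against 28.0%).

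Regions of the aNE_H-only set were more often private to their list. Open in none of the other 8 lists were 8683 aNE_H-only regions (27.9%), 6117 aNE_M-only regions (13.6%) and 2099 shared regions (1.36%). Open in all 8 were 348 (1.12%), 1803 (4.02%) and 78808 (51.2%) of the same sets. The median number of other lists was 2 for aNE_H-only, 3 for aNE_M-only and 8 for shared regions. Split by the 2 anterior lists, 26.4% of aNE_M-only regions were open in both aNE and aNE_T, 24.0% in aNE_T alone, 5.22% in aNE alone and 44.4% in neither. The matching shares of aNE_H-only regions were 7.61%, 9.24%, 6.40% and 76.8%.

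Read from the day 2 parent, the media had most regions in common. Of the 152250 regions open in aNE, 110143 (72.3%) were open in both day 4 lists and 23571 (15.5%) in neither. Another 14168 (9.31%) were open in aNE_M only and 4368 (2.87%) in aNE_H only. Of the 101307 regions without an aNE peak that were open in either day 4 list, 43851 (43.3%) were open in both, 30648 (30.3%) in aNE_M only and 26808 (26.5%) in aNE_H only. With aNE_M cut to the size of aNE_H, the aNE_M-only share of these gains was 25.4% and the aNE_H-only share 31.9%, so their order turned with list size. The order among aNE regions did not, with 8.23% against 3.67%. The 43851 shared gains were open in pNE in 70.5% of cases, in pNE_H in 78.4% and in pNE_M in 56.5%, against 45.3% in aNE_T, 43.2% in pNE_T, 36.7% in DE and 31.7% in hPSC. With all 10 lists at equal size pNE came first with 67.4%, ahead of pNE_H with 54.3% and pNE_M with 51.1%.

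**Figure D4:**
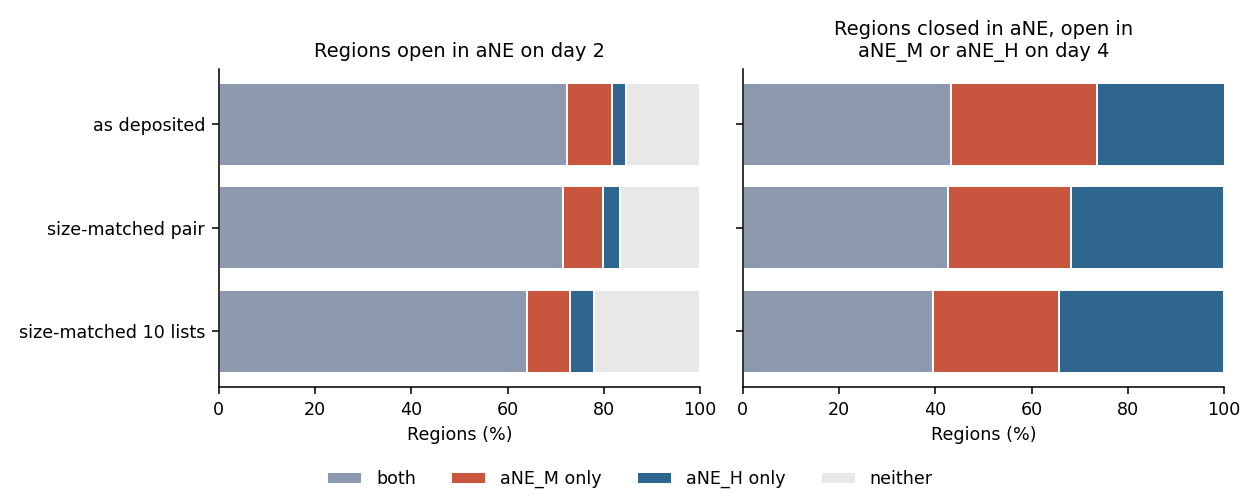
Day 4 state of regions open in aNE (left) and of regions without an aNE peak that were open in aNE_M or aNE_H (right). The horizontal axis is percent of regions, each bar is 1 setting of list size, and colours give the day 4 class. Regions open in both lists make up 72.3% of the left bar and 43.3% of the right bar as deposited, and in the right panel the aNE_M-only part is the larger as deposited and the smaller at equal size.

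Genes of regional identity were compared by the regions within 50 kb of the gene. This window held more aNE_M-only than aNE_H-only regions for 53.7% of 19122 protein-coding genes and more aNE_H-only ones for 23.6%, with a median difference of 1 region. With aNE_M cut to the size of aNE_H these were 40.3% and 34.7%, with a median of 0. The midbrain and isthmus list stood near this background, with more aNE_M-only regions at 12 of 20 genes and more aNE_H-only at 4, and at equal size 8 and 6. In all its windows held 71 aNE_M-only, 51 aNE_H-only and 366 shared regions.

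PAX2, a paired-box factor of the isthmus, had 6 aNE_M-only, 11 aNE_H-only and 30 shared regions around it (chr10:100735396-100829944). Of its 11 aNE_H-only regions, 4 were open in no other list, with peaks of 177, 252, 126 and 151 bp. Over all aNE_H-only regions that share was 27.9%. LMX1A, a roof plate and midbrain dopaminergic factor, had 8 aNE_M-only and 5 aNE_H-only regions. PAX5, another isthmus factor, had 7 and 6, and LMX1B had 6 and 3. EN1, the engrailed factor of midbrain and anterior hindbrain, had 3 and 4 with 15 shared. OTX2 had 4 and 3 with 13 shared, FGF8 had 1 and 1 with 11 shared, and WNT1 had 1 and 1 with 16 shared.

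The windows of hindbrain genes held more aNE_M-only than aNE_H-only regions, 69 against 33 in all, with 326 shared. Of 20 genes, 12 had more aNE_M-only regions and 4 more aNE_H-only ones. At equal size it was 12 and 8, with 51 against 39 regions and a median of 1.00 beside 0 over all coding genes. Windows of neighbouring HOX genes hold some of the same regions, so the 20 genes are not separate counts. MEIS2, a TALE cofactor of HOX proteins, had 11 aNE_M-only, 3 aNE_H-only and 29 shared regions, and 9 and 3 at equal size. GBX2 (chr2:236161340-236168386) had 8, 2 and 11, and 4 and 2 at equal size. The widest exclusive peak near GBX2 was an aNE_H peak of 570 bp in the region chr2:236141610-236142179, 26.2 kb downstream of the start site, where pNE had a peak of 124 bp and the other 8 lists had none. HOXD3 and HOXD4, which lie side by side, had 6 and 2 each. HOXB1, an early retinoic acid target, had 3 and 4, and EGR2, a factor of hindbrain segments, had 2 and 0.

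Rostral forebrain genes had more aNE_M-only regions at 11 of 14 and more aNE_H-only ones at 2, and at equal size 6 and 3. LHX2, a factor of forebrain and eye, had 9 aNE_M-only, 1 aNE_H-only and 19 shared regions, and 6 and 1 at equal size. Its widest exclusive region, chr9:124000870-124001727, lay 10.0 kb upstream of the start site and had peaks of 494 bp in aNE_M, 632 in aNE_T, 289 in aNE, 144 in pNE, 254 in pNE_T and 145 in pNE_M. The hPSC, DE, aNE_H and pNE_H lists had no peak in it. FEZF1 had 5 aNE_M-only and 4 aNE_H-only regions, LHX5 had 5 and 3, and SFRP1, which binds WNT ligands, had 5 and 3.

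Neural ectoderm genes had more aNE_M-only regions at 9 of 14 and more aNE_H-only ones at 2, but 5 and 7 at equal size. PAX6 (chr11:31789026-31817961) had 9 aNE_M-only, 2 aNE_H-only and 13 shared regions, and 9 and 3 at equal size. The region chr11:31779326-31779895, 9.13 kb from the gene, had peaks of 454 bp in DE, 252 in aNE, 511 in pNE, 516 in aNE_T, 476 in aNE_M, 316 in pNE_T and 452 in pNE_H, and none in hPSC, aNE_H and pNE_M. The region chr11:31764082-31764687 had peaks of 497 bp in aNE_T, 484 in aNE_M, 418 in pNE_T and 485 in pNE_H. Both PAX6 regions were thus open in aNE_M, in the telencephalon lists of either origin and in pNE_H. HES5 (chr1:2528745-2530263) had 9 aNE_M-only and 1 aNE_H-only region, and 6 and 1 at equal size. POU3F3 had 5 and 3.

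Retinoic acid genes were mixed. Of 17 genes 9 had more aNE_M-only and 5 more aNE_H-only regions, and at equal size 7 and 8. RARB, a retinoic acid receptor and itself a target of the signal, had 9 aNE_M-only, 12 aNE_H-only and 37 shared regions. RXRA, the partner receptor, had 9 and 3, and RARA had 7 and 1, a difference that was the same at equal size. The enzyme gene ALDH1A3, which makes retinoic acid, had 4 and 6. The RARA regions included chr17:40350200-40351656 in the gene, with peaks of 280 bp in aNE_M, 924 in aNE_T, 1402 in pNE_T, 1086 in pNE_M and 1290 in pNE_H, 450 in aNE, 462 in pNE and 184 in DE, and none in aNE_H or hPSC.

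Genes of the WNT response turned with list size, from 8 with more aNE_M-only and 7 with more aNE_H-only regions to 6 and 9. TCF7L2, a nuclear effector, had 12 and 11, and 7 and 11 at equal size. LEF1, another effector, had 10 and 10. NKD1, a feedback inhibitor, had 12 and 8, and ZNRF3, which removes WNT receptors, had 13 and 3 with 30 shared. Chosen after their values were seen, SP5 and RNF43, direct WNT targets, each had 1 aNE_M-only and 5 aNE_H-only regions in either setting. Other genes of this list, also chosen after their values were seen, leaned the other way. CDX1 had 6 and 0, and CDX2 5 and 1, with 5 and 0 and 5 and 1 at equal size. Near SP5 (chr2:170715337-170718078), 3 of its 5 aNE_H-only regions, with peaks of 126, 135 and 264 bp, were open in no other list. Of all aNE_H-only regions 27.9% were open in no other list. Inside RNF43 (chr17:58352500-58417534) lay 4 of its 5, with aNE_H peaks of 199, 177, 142 and 157 bp. Each of these 4 was also open in pNE_H, as were 48.2% of all aNE_H-only regions.

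The SHH list had more aNE_M-only regions at 7 of 12 genes and more aNE_H-only ones at 2, and 5 and 5 at equal size. GLI3, mainly a repressor of the pathway, had 12 and 12, GLI2, mainly an activator, had 12 and 8, the ventral factor NKX2-2 had 5 and 2, and the SHH receptor PTCH1 had 4 and 3. FGF feedback genes, which respond to FGF through the ERK kinases, had more aNE_M-only regions at 4 of 11 and more aNE_H-only ones at 5, and 2 and 7 at equal size. SPRED2 had 8 and 6, SPRED1 6 and 4, and IL17RD 4 and 3, all inhibitors of the pathway. ETV5, a transcription factor that FGF induces, had 6 and 0 with 12 shared in either setting. DUSP6, an ERK phosphatase chosen after its values were seen, had 1 and 4, and 0 and 4 at equal size.

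Markers of other cell types were counted beside these lists. Neural crest and surface ectoderm genes had more aNE_M-only regions at 4 of 12 and more aNE_H-only ones at 7, and 3 and 7 at equal size, with 31 and 33 regions in all and 182 shared. TFAP2A had 4 and 6, TFAP2C 2 and 5, PAX3 7 and 4, and PAX7 6 and 3. Mesoderm and endoderm genes split 4 and 1 of 9, and 4 and 2 at equal size, with GATA4 at 7 and 7 and TBXT at 4 and 2. Pluripotency genes split 6 and 1 of 9, and 4 and 3 at equal size, with ZFP42 at 5 and 5 and LIN28A at 5 and 1. Promoter windows were open in both lists for 10 of 12 neural ectoderm genes, 6 of 8 neural crest and surface ectoderm genes, 5 of 6 mesoderm and endoderm genes and 5 of 6 pluripotency genes. An open promoter window therefore did not separate these cell types, and how much each cell type adds to the 2 lists was not tested.

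**Figure D5:**
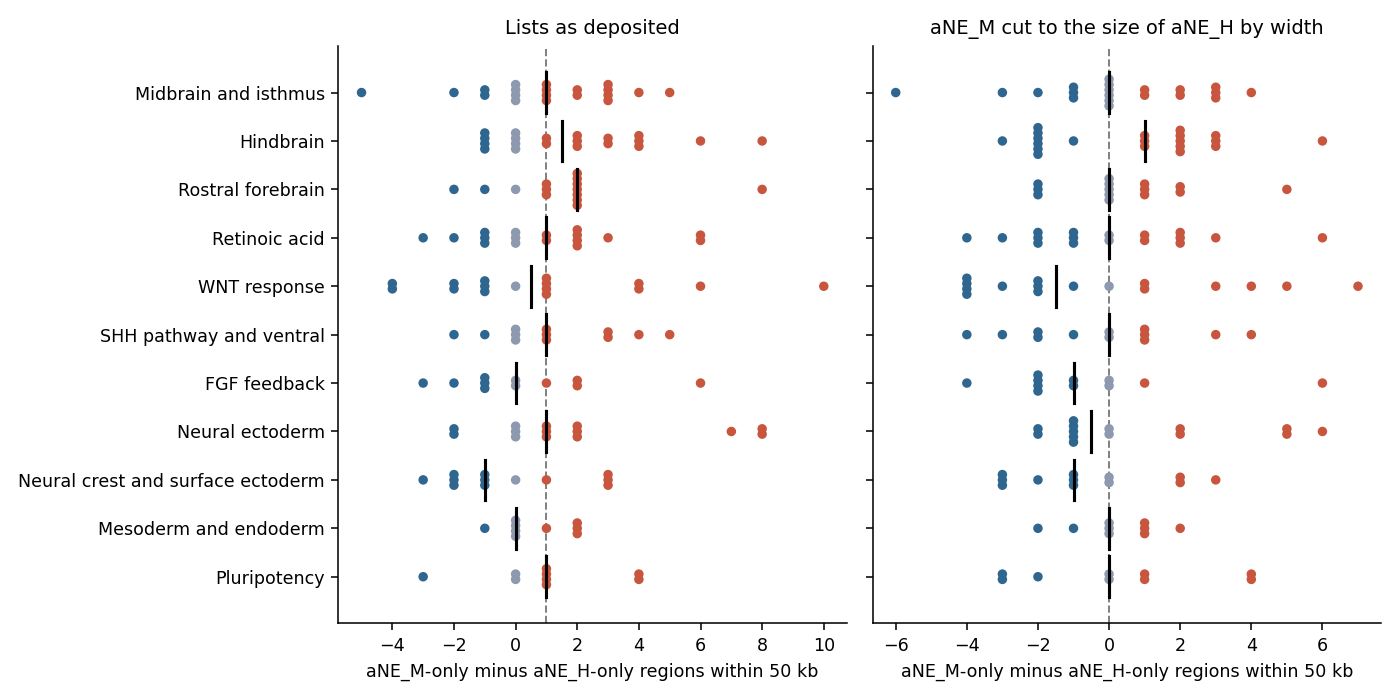
Difference between the numbers of aNE_M-only and aNE_H-only regions within 50 kb, for each gene of 11 lists. The horizontal axis is a number of regions, each point is 1 gene, black bars are list medians, and the dashed line is the median of all protein-coding genes, 1 as deposited (left) and 0 with aNE_M cut to the size of aNE_H (right). The rostral forebrain median is 2.00 on the left and 0 on the right, and that of the WNT response list moves from 0.500 to -1.50.

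By nearest gene end over all protein-coding genes, the 10 genes with the largest excess of aNE_M-only regions were mostly long ones, 9 of them 222 to 2474 kb, and longer genes can hold more regions. AUTS2 was nearest to 72 aNE_M-only and 29 aNE_H-only regions, RBFOX1, a splicing regulator of neurons, to 57 and 15, and PTPRT, a receptor phosphatase, to 35 and 4. PLXNA2, a semaphorin receptor, had 37 and 10, ASIC2, an acid-sensing channel, 35 and 10, and ZFHX3 38 and 13. The other 4 were NTM with 41 and 16, PTPRM with 34 and 11, CDH4 with 35 and 12, and VRK1 with 30 and 8. At equal size AUTS2 had 63 and 34, RBFOX1 46 and 20, and PTPRT 29 and 5.

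In the other direction GPC5, a cell-surface proteoglycan, was nearest to 27 aNE_M-only and 52 aNE_H-only regions, the protocadherin PCDH9 to 19 and 41, and GBE1 to 20 and 42. SLITRK6 had 10 and 30, SLITRK5 10 and 29, CNTN5 12 and 31, PCDH10 14 and 33, PABPC4L 13 and 30, and GRIK2 14 and 30, and CSMD1 completed the 10 with 25 and 45. At equal size GPC5 had 19 and 57 and SLITRK6 4 and 36. SLITRK6 itself is 6.63 kb long and had no exclusive region within 50 kb, so its regions lay in the gene-poor sequence around it. GPC5, PCDH9, SLITRK6 and SLITRK5 are all on chromosome 13, where aNE_M-only regions were 53.0% of exclusive ones, the lowest share after chromosome 4 with 52.0%. The highest were 65.4% on chromosome 15 and 65.2% on chromosome 22, and at equal size the range ran from 43.1% on chromosome 4 to 58.3% on chromosome 22.

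Away from gene ends, by more than 1 kb, the exclusive peaks of greatest width differed in how many lists shared them. The widest aNE_M-only peak, chr10:121552891-121554047, lay inside FGFR2, an FGF receptor, and was 1157 bp wide. Every list but aNE_H was open there, with 381 bp in hPSC, 1129 in DE, 1500 in aNE, 1157 in pNE, 1173 in aNE_T, 1284 in pNE_T, 616 in pNE_M and 878 in pNE_H. The next 4 were 1131 bp at chr9:82923621-82924751 (54.8 kb from RASEF), 1104 bp at chr20:41837161-41838264 (194 kb from PTPRT), 1086 bp at chr9:34565637-34566722 inside CNTFR and 1082 bp at chr17:34851823-34852904 (75.0 kb from CCT6B). Each of these 4 was open in 7 or 8 lists, and aNE_T peaks there were 1359, 428, 1250 and 1215 bp wide.

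The widest aNE_H-only peak, chr6:166222487-166223558, was 1072 bp wide and lay 53.8 kb from the nearest end of TBXT, the brachyury gene of primitive streak and notochord. Only pNE_M with 189 bp and pNE_H with 134 bp were also open there. A 1005 bp peak at chr7:149404194-149405198, 26.2 kb from ZNF777, was shared with pNE_T (143 bp), pNE_M (153 bp) and pNE_H (332 bp). Likewise a peak of 878 bp at chr6:129293830-129294707 inside LAMA2, a laminin gene, was shared with pNE_M (139 bp) and pNE_H (131 bp). The remaining 2 of the 5 widest were open in most lists, 885 bp at chr6:114534533-114535417 in 8 lists and 879 bp at chr2:57146486-57147364 in 7.

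Over start sites, the widest aNE_M-only peaks were those of FRK, a tyrosine kinase, at 619 bp, LRTM2 at 604 bp, CPN2 at 578 bp, MIP, the lens aquaporin, at 537 bp and WNT8B at 523 bp. The FRK site had no aNE_T peak and 935 bp in pNE_H. The merged region at LRTM2 had a peak in every list but aNE_H. The aNE and pNE peaks there did not reach the 300-base window of LRTM2. The widest aNE_H-only peaks over start sites were narrower, with FXYD1 at 462 bp, CHRND, a muscle acetylcholine receptor subunit, at 390 bp, CX3CR1, a chemokine receptor, at 365 bp, KRT9 at 363 bp and TLDC2 at 327 bp. The CX3CR1 peak was in no other list, but an aNE_M peak lay 134 bp from its 300-base window. At TLDC2 the nearest aNE_M peak was 81 bp from the window. For FXYD1, CHRND and KRT9 it was 2189, 1423 and 6745 bp away. Of all promoter windows open in aNE_M only, 62.3% were open in aNE_T and 44.9% in aNE, against 31.5% and 24.8% of those open in aNE_H only. In pNE_M the shares were 35.2% and 36.2%, and in pNE_H 66.9% and 59.7%. They were 55.1% and 41.6% in hPSC, 59.3% and 45.0% in DE, 46.6% and 43.6% in pNE, and 43.2% and 32.2% in pNE_T, so the aNE_M-only promoters had the higher share in every other list but pNE_M.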

How the data were processed

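OmniATAC-seq peak lists of 10 groups with 3 replicates each were analysed, 1 list per group. The authors deposited the start and end position of each peak, with no score, count or summit. FastQC, Bowtie2, MACS2, bedtools, featureCounts and deepTools and the build hg38 are named in the submitters' processing notes, and which of them made the lists, with which threshold, and how replicates were combined is not given in the sources used here. A different threshold would change the number of narrow peaks and every overlap.

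Peaks outside chromosomes 1 to 22 were left out. Gene positions and promoter windows came from RefSeq on GRCh38.p14, with 19122 protein-coding genes, and a region counted for a gene within 50 kb of it. No replicate value exists, so no test was made. The members, gene lists and motifs were chosen with earlier results of these data known. Within each of the 11 lists, up to 4 genes with the most exclusive regions were named. Outside them, the 10 genes with the largest difference in each direction by nearest gene end, keeping its sign at equal size, were named, with the 5 widest exclusive peaks in each direction away from gene ends and over start sites. Genes outside this rule served the midbrain and hindbrain background (EN1, OTX2, FGF8, WNT1, HOXB1, EGR2). Others were chosen after their values were seen (SP5, RNF43, CDX1, CDX2, DUSP6). Alternatives changed list size, peak width, the overlap that counts as open, the region definition, the distance to genes and the assignment to genes. Listed genes outside chromosomes 1 to 22 were not counted, some listed genes are not reported here, and TDGF1 was matched under its current symbol CRIPTO. LHX2 is in 2 lists. On simulated lists whose regions stood well apart, the code for merging, counts, gaps and gene assignment returned the known values. The width cut, promoter windows and motif search were not simulated. Scripts ran under Python 3.11.15 and used pandas 2.3.3, matplotlib 3.10.9, numpy 2.4.6 and scipy 1.17.1.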

Additional observations from a re-analysis of the deposited data

Results flagged for a closer look

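As deposited, the midbrain and hindbrain lists differed in opposite directions in the anterior and the posterior pair. With 1 list per group this difference between origins was not tested. Cells of the anterior pair were plated at 75000 per square cm and those of the posterior pair at 150000. Origin and plating density therefore differ together here, and their parts were not tested. In the anterior pair the midbrain list had 14397 more peaks than the hindbrain list on chromosomes 1 to 22, while in the posterior pair the value for midbrain minus hindbrain was -92388. Peaks covered 7.08 Mb more in aNE_M than in aNE_H, against -43.6 Mb for pNE_M minus pNE_H.

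Of the regions open in aNE, 81.6% were open in aNE_M and 75.2% in aNE_H, a difference of 6.44 points, and in the posterior lists 72.3% and 82.1%, a difference of -9.86 points. Of the regions open in aNE_T, the anterior lists were open at 81.2% and 71.7%, a difference of 9.56 points, and the posterior ones at 68.1% and 80.0%, a difference of -11.9 points. With every list cut to the same number of widest peaks, the posterior differences were 0.793 and 0.356 points and the anterior ones 3.99 and 6.94 points, so the signs were then the same. With only aNE_M cut to the size of aNE_H they stayed opposite, at 4.56 against -9.86 points for aNE regions and 7.19 against -11.9 points for aNE_T regions.

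Peaks on other sequences were left out of the comparison. There were 17720 in aNE_M (7.74%) and 17005 in aNE_H (7.95%), of which 10417 and 10003 lay on unplaced or alternate scaffolds and 7082 and 6781 on chromosome X. No control list says how many such peaks to expect.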

How the results depend on the processing

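Counts of aNE_M-only, aNE_H-only and shared regions stayed within a factor of 1.5 except with the wider 50% of each list (23546, 16391 and 79416, fewer because fewer peaks enter) and, for shared regions, when peaks had to cover 50% of the region (99928). The Jaccard index of 0.670 was 0.674 with the pair at equal size, 0.665 with the wider 50%, 0.534 with 50% covered, 0.684 with 500 bp windows, 0.651 with only the 2 lists merged, 0.725 when exclusive regions with a peak of the other list within 1 kb were dropped and 0.644 more than 1 kb from any gene end.

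In the order pair at equal size, 10 lists at equal size, wider 50%, 50% covered and 500 bp windows, the share of aNE_M-only regions open in aNE was 34.3%, 44.2%, 32.5%, 28.3% and 33.2%, and that of aNE_H-only regions 15.6%, 25.0%, 15.3%, 13.6% and 15.3%. In aNE_T they were 54.4%, 56.5%, 52.2%, 47.9% and 52.4% for aNE_M-only regions, and for aNE_H-only regions 19.2%, 22.0% and 18.5%, then 17.8% with 500 bp windows. The share of aNE_M-only regions open in pNE_M was 32.1%, 29.3%, 31.4%, 24.5% and 32.3%, and that of aNE_H-only regions open in pNE_H 50.9%, 28.3%, 49.6%, 45.4% and 50.6%. With only the 2 lists merged, aNE held 32.5% and 15.3%, aNE_T 18.3% of aNE_H-only and pNE_H 49.7% of aNE_H-only regions. Without peaks of the other list within 1 kb, aNE held 32.5%, pNE_M 31.2% and aNE_T 52.4% of aNE_M-only and pNE_H 49.3% of aNE_H-only regions. The aNE_M-only share in aNE and aNE_T exceeded the aNE_H-only share in each of these settings.

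Sums of aNE_M-only minus aNE_H-only regions changed sign for WNT response (-5), SHH (-2) and FGF feedback genes (-7) with the pair at equal size, and for neural crest and surface ectoderm (24) and mesoderm and endoderm genes (-1) by nearest gene end. For these changes the cause was not tested, beyond the removal of narrow aNE_M peaks that equal size implies. No paired analysis was possible because the files hold no value per library, and leaving out a replicate was not run for the same reason. Read depth is unknown, so a region without a peak cannot be told from one with too few reads.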
